A study of Homo sapiens with 3 samples.

Results

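The genes described here are 10 members of the BCL2 family, which decides whether the outer membrane of the mitochondrion stays sealed or is opened to release cytochrome c. They were taken as every array probe whose annotated symbol is MCL1, BCL2, BCL2L1, BCL2L11, BAX, BAK1, BID, BAD, BBC3 or PMAIP1, which gave 24 probes for 10 of the 18851 genes with a probe. RNA came from H2373 cells, an established line derived from a malignant pleural mesothelioma and grown in medium with fetal calf serum, that were left untreated or were given 36 µM Hoechst 33258 (H258) or 36 µM Hoechst 33342 (H342), both bisbenzimide dyes, for 3 h. Each condition was measured on 1 Illumina BeadChip array, so there were 3 arrays and no replicates. Differences are therefore given without an error or a p-value. The hours in culture of the untreated cells were not stated. H258 and H342 are analogs that bind AT-rich stretches of the DNA minor groove. The end phenyl ring is the point of difference, with a hydroxyl in H258 and an ethoxy in H342. In RNA from whole cultures, fewer cells of a type and less RNA per cell cannot be told apart.

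Proteins of this family act by binding one another. The pro-survival members MCL1, BCL2 and BCL2L1 (BCL-XL) hold the effectors BAX and BAK1 in check, and the effectors, once free, assemble into pores in the outer membrane. The BH3-only members BCL2L11 (BIM), BID, BAD, BBC3 (PUMA) and PMAIP1 (NOXA) sense stress and bind the pro-survival members or the effectors. MCL1 is a short-lived protein encoded by a short-lived messenger RNA, and the protein PMAIP1 binds chiefly to MCL1.

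A probe was detected when its detection p, a comparison with negative control beads on the same array, was under 0.05. By this measure the untreated array detected 33.1% of its probes, the H258 array 31% and the H342 array 31.2%, and the lowest detected signals were 156, 160.0 and 157 in the same order. Of 13 mesothelial markers 8 were detected in untreated cells, among them MSLN, CALB2 and WT1, while UPK3B, ITLN1, LRRN4, PDPN and KRT5 were not detected on any array. None of 10 lung epithelial markers and 2 of 9 blood cell markers, CD68 and CD14, were detected in untreated cells. Differences are given on the log2 scale after correction of the background and quantile normalization. A gene was tested if either array of a comparison detected it, and was called if it differed by 2-fold or more. Signals of different probes are not compared with each other, because probes differ in how well they bind.

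Among the members, 19 of the 24 probes were detected on at least 1 array and 15 on all 3. By its brightest probe, which stands for the gene unless another is named, each member except BBC3 was detected on all 3 arrays. BBC3 was detected under H342 only. The plot of signals by array shows every probe.

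**Figure D1:**
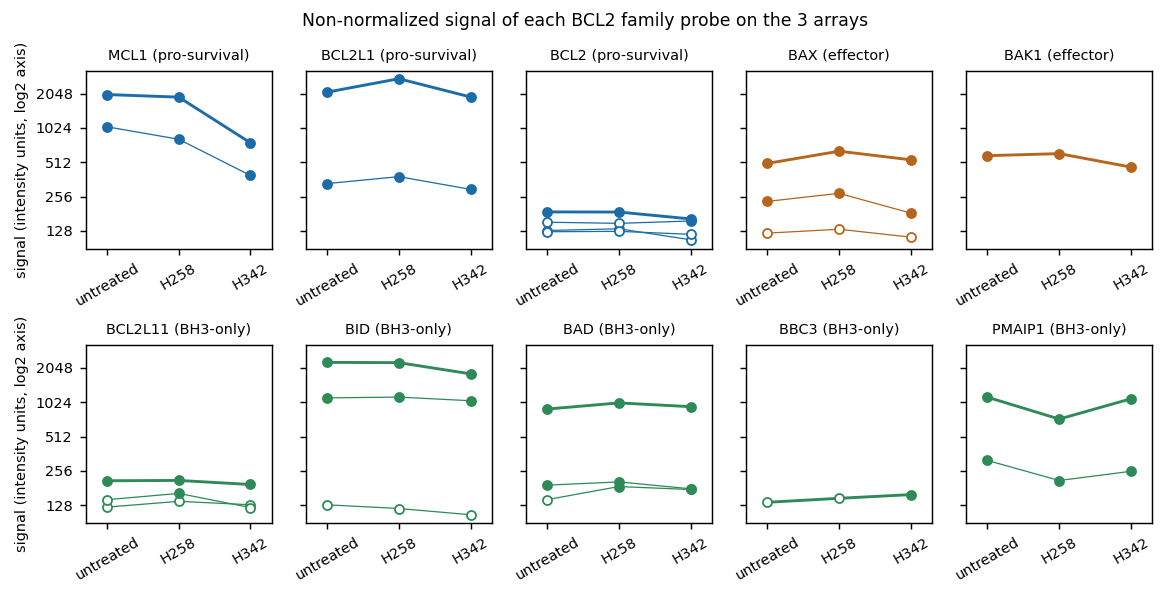
Signal of each probe in intensity units (vertical log2 axis, non-normalized) on the arrays of untreated, H258-treated and H342-treated cells, 1 panel per gene and 1 line per probe. The thick line is the brightest probe, filled points were detected at a p under 0.05 and open points were not, and blue, brown and green mark pro-survival, effector and BH3-only members. Both MCL1 lines drop at H342, from 1906 to 758 and from 815 to 392, and both PMAIP1 lines dip at H258.

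MCL1 had the largest difference of the 10 members by brightest probe, and it was called under H342 and not under H258. Its brightest probe had a signal of 2008 without dye, 1906 with H258 and 758 with H342. The array of H342-treated cells stood apart, and the other arrays lay close together. The log2 difference of H342 from untreated cells was -1.46, a 2.75-fold lower level, which placed MCL1 140th from the lowest of 10581 genes tested. The second probe of MCL1 had signals of 1047, 815 and 392 in the same order, and its log2 difference under H342 was -1.63, a little over 3-fold lower. Under H258 the probes of MCL1 had -0.06 and -0.34, neither near 2-fold. Compared directly at the same dose and time, H342 was lower than H258 by 1.40 on the log2 scale, or 2.64-fold, at the brightest probe and by 1.29 at the second. The fall under H342 was past 2-fold at both probes without background correction, at -1.33 for each, and in the value table normalized by the authors, at -1.26 for each. In that table the direct difference of the second probe was -0.98, just short of 2-fold.

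The probes of MCL1 gave like values. Over the 2211 genes of the array with at least 2 probes detected on all arrays, the differences of the brightest and the second probe under H342 lay a median of 0.20 apart, and those of MCL1 lay 0.17 apart. Of these 2211 genes, 45 fell short of their untreated level by 2-fold or more under H342 at the brightest probe and 27 of them, MCL1 included, at the second as well. In all, 1 of the 10 members was called under H342, MCL1, and 0 were higher. Of all genes tested, 4.86% were called under H342, 3.61% lower and 1.25% higher, so a count of 1 in 10 members is near the background and says nothing of the family as a whole. The difference of MCL1 lay near the low end of all genes, with 1.31% of them lower. The 500 tested genes nearest to MCL1 in mean level had a median difference of 0.05 and a robust SD of 0.36 under H342.

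The other pro-survival members did not reach 2-fold under either dye. BCL2L1 had signals of 2108 without dye, 2764 with H258 and 1911 with H342, with log2 differences of 0.42 under H258 and -0.05 under H342. Its second probe had 0.38 and -0.14, so the probes lay within 0.095 of each other in both comparisons. Here the array of H258-treated cells was the highest, and the others lay close together. BCL2, the founding member of the family, was near the limit of detection in these cells, with signals of 188, 188 and 163 in the order untreated, H258 and H342. Its log2 differences were 0.07 under H258 and -0.35 under H342, and the second of these was -0.15 without background correction. A second BCL2 probe was detected only under H342, at a signal of 157, and had 0.17 there, so the probes of BCL2 did not go the same way.

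PMAIP1 was the lowest member under H258. Its signal was 1133 without dye, 729 with H258 and 1097 with H342, and the array of H258-treated cells was the low one. The log2 difference under H258 was -0.67, 1.59-fold lower, and that under H342 was 0.07. The second probe, with signals of 316, 211 and 254, had -0.94 under H258 and -0.39 under H342, and the first of these was -0.55 in the deposited value table. PMAIP1 was 961st from the lowest of 10550 genes tested under H258, with 9.10% of the genes below it, so a difference of this size was common on the array. It was short of 2-fold at both probes. In the direct comparison PMAIP1 was higher under H342 than under H258 by 0.74 at the brightest probe and 0.56 at the second. Among the members PMAIP1 and BBC3 alone were higher under H342 than under H258, and BBC3 was detected under H342 only.

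The effector BAX was the highest member under H258, where 0 of 9 members were called against 4.11% of all genes tested, 0.768% higher and 3.35% lower. Its brightest probe had signals of 500.4 without dye, 640.2 with H258 and 538 with H342. The log2 difference under H258 was 0.51, and the second detected probe, with signals of 233, 274 and 184, also had 0.51. Under H342 these probes disagreed, at 0.24 and -0.58, a gap of 0.82 that exceeds the gap of 0.58 below which 90% of the 2211 genes with 2 detected probes lay. In the deposited value table they lay closer, at 0.18 and -0.29. The signal of 184 was near the lowest detected signal of that array, 157. The second probe of BAX was 1.10 lower under H342 than under H258, past 2-fold, against 0.27 lower at the brightest, and in the deposited value table it was 0.58 lower. No direction is therefore given for BAX under H342. BAK1, the other effector, has 1 probe on the array, with signals of 585, 609 and 465 and log2 differences of 0.15 under H258 and -0.31 under H342. It was lower under H342 than under H258 by 0.46.

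**Figure D2:**
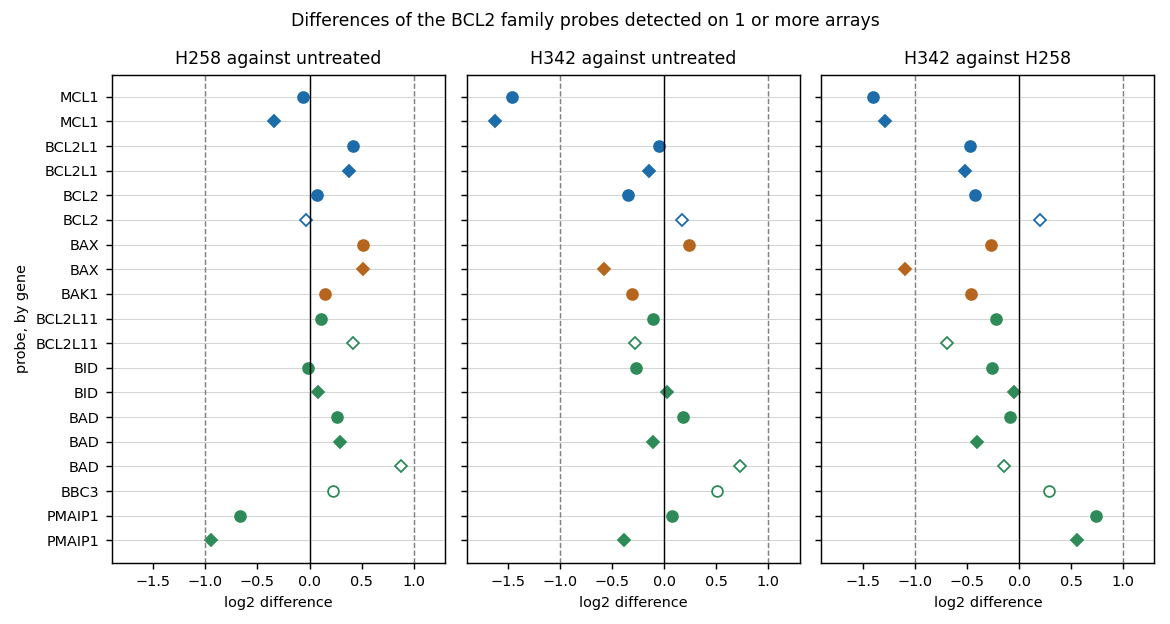
Log2 differences (horizontal axis) of the 19 probes of the family detected on at least 1 array, 1 row per probe, for H258 against untreated cells, H342 against untreated cells and H342 against H258. Circles are the brightest probe of a gene, diamonds the others, and open symbols were not detected on all 3 arrays; the dashed lines mark 2-fold. MCL1 lies beyond the line at both probes under H342, at -1.46 and -1.63, and PMAIP1 lies at -0.67 and -0.94 under H258.

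The remaining BH3-only members did not reach 2-fold at their brightest probe. BID, which caspase 8 cuts to carry a death receptor signal to the mitochondrion, had signals of 2289 without dye, 2275 with H258 and 1815 with H342. Its log2 differences were -0.01 under H258 and -0.27 under H342, and 0.08 and 0.03 at its second probe. BAD, which survival kinases switch off by phosphorylation, had signals of 892, 1010 and 936, with 0.27 under H258 and 0.18 under H342. Its second probe, with signals of 192, 205 and 178, had 0.30 under H258 and -0.11 under H342, so the probes of BAD differed in sign under H342. Another, dim probe of BAD was not detected in untreated cells, where its signal was 144, and was detected at 187 under H258 and 176 under H342. This dim probe had 0.88 under H258 and 0.73 under H342, or 0.49 and 0.42 in the deposited value table. Set against the lowest detected level of the untreated array, it was 1.58-fold higher under H258 and 1.43-fold under H342. BCL2L11, which binds every pro-survival member, had signals of 209.9, 211 and 195, with 0.11 and -0.11, or 0.05 and -0.05 without background correction. A dimmer probe of BCL2L11 was detected under H258 only, with signals of 143, 163 and 122. This probe had 0.41 under H258 and -0.28 under H342, or 0.25 and -0.20 in the deposited value table, and -0.70 between the dyes. BBC3, of the same broad reach as BCL2L11, had signals of 136, 147 and 159 and passed detection under H342 only. Set after normalization against the lowest detected level of the untreated array, it was 1.12-fold higher under H342. Its signal of 159 lay close to the lowest detected signal of the untreated array, 156, so no rise is read from this bound.

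Described by role, the 3 pro-survival members had a median log2 difference of 0.07 under H258 and -0.35 under H342, the 2 effectors 0.33 and -0.04, and the BH3-only members 0.05 over 4 genes and 0.07 over 5. The pro-survival median under each dye is the value of BCL2, which under H342 was -0.15 without background correction and 0.17 at another probe. The effector median under H342 averages BAK1 with BAX, for which no direction is given. The BH3-only median under H342 is the value of PMAIP1, whose sign there depends on the processing. That median also includes BBC3, which was tested only because the H342 array detected it, so its side is not read. Over all members the medians were 0.11 under H258, over 9 genes, and -0.08 under H342, over 10, beside 0.06 and 0.03 over all genes tested. With detection required on both arrays, BBC3 dropped out and the H342 median was -0.11 over 9 genes. The comparisons with untreated cells share 1 array. Between the dyes 1 member was called, MCL1, against 7.43% of 10296 genes tested, 3.69% lower and 3.74% higher. On the same comparison 8 of the 10 members were lower under H342 and 2 were higher, where 48.3% of all genes tested were higher. The members had a median of -0.26 beside -0.01 over all genes. With 1 array per dye this count was not tested. All 3 pro-survival members and both effectors lay on the lower side, the pro-survival members at -1.40 for MCL1, -0.47 for BCL2L1 and -0.42 for BCL2. For BCL2 this was -0.18 without background correction, -0.21 in the deposited value table and -0.11 over its detected probes, of which the dimmer had 0.20. At 1.5-fold, 1 member was called under H258, PMAIP1, against 18.8% of all genes, 1 under H342, MCL1, against 17.8%, and 2 between the dyes, MCL1 and PMAIP1, against 21.9%.

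The dyes bind runs of A and T, so the promoters of the members with the largest differences under H258 are shown, PMAIP1 as the lowest and BAX and BCL2L1 as the highest. Each is the 250 bases before the gene start in RefSeq, build GRCh38.p14, written 5′ to 3′ along the gene, and capitals mark runs of at least 4 adjacent bases that are each A or T. The table held windows for 9 of the 10 members, all but MCL1, and 2 for BCL2L1, of which the upstream one is shown.
PMAIP1, chr18:59899746-59899995, plus strand: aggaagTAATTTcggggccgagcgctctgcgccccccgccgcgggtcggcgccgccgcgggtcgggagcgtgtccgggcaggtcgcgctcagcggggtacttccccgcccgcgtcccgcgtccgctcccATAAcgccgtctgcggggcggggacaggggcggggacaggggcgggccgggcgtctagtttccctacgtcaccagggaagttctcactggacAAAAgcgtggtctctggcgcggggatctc
BAX, chr19:48954625-48954874, plus strand: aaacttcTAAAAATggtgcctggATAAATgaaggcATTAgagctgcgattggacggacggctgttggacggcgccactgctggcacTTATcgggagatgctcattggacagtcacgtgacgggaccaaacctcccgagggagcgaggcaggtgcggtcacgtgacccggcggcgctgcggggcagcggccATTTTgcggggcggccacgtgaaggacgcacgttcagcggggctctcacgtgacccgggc
BCL2L1, chr20:31723964-31724213, minus strand: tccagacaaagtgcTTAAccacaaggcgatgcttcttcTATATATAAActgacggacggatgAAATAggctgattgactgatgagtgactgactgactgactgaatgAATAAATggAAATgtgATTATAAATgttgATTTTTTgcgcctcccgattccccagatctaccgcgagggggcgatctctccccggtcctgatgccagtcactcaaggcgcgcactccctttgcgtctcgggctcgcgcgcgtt
The window of PMAIP1 holds 3 such runs and 27.2% A or T, that of BAX 5 runs and 37.2%, and that of BCL2L1 7 runs and 50%. The other window of BCL2L1 holds 6 runs and 39.6% A or T. Over all 35116 windows of the table the median was 4 runs and 42.0% A or T, 45.1% had 3 runs or fewer and 35.0% had 7 or more. The letters AATT, a site these dyes favor and its own reverse complement, are in the window of PMAIP1 and not in the other windows shown, and in 43.0% of all windows. Of the 15 windows of the members 4 hold them, that of PMAIP1 and windows of BID, which had -0.01 under H258. The letters TATAAA, on either strand, are in the BCL2L1 window shown and in 10.7% of all windows. The letters GGGCGG, on either strand, occur 4 times in the window of PMAIP1 and once in that of BAX, and 42.6% of all windows hold them. These matches describe the letters only, and binding of the dyes was not measured.

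Around the family, 7 lists of partners and regulators held 81 genes, of which 63 were tested under H258 and 62 under H342. Under H258, 1 of them was called, or 1.59%, beside 4.11% of all genes, and under H342 5 were, or 8.06%, beside 4.86%. The plot of the lists shows the called genes by name.

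**Figure D3:**
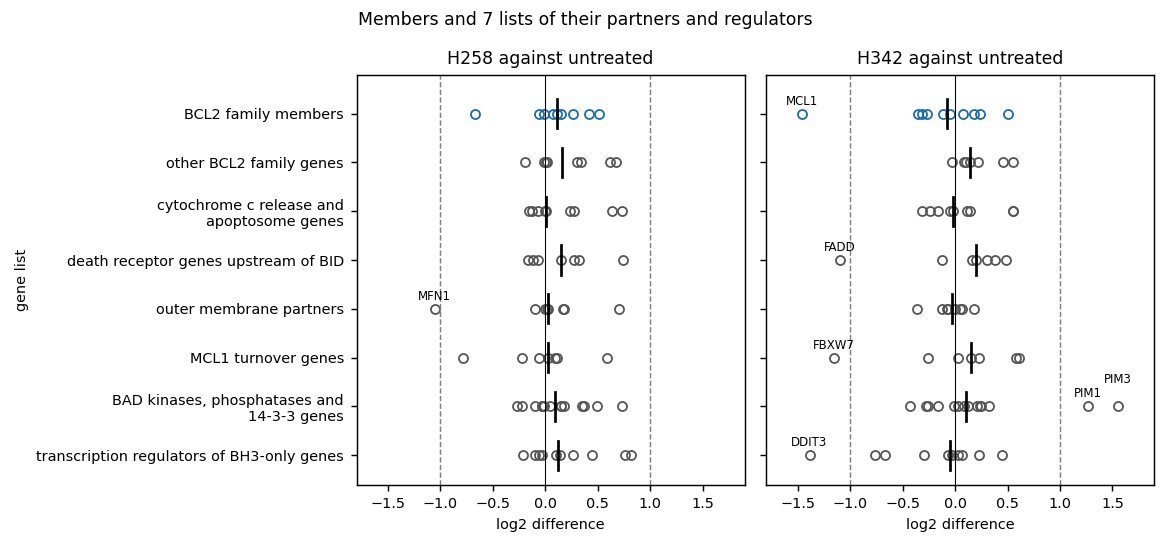
Log2 differences (horizontal axis) of the tested BCL2 family members and of the tested genes of 7 lists around them, 1 circle per gene by its brightest probe, under H258 (left) and H342 (right) against untreated cells. Black bars are medians, dashed lines mark 2-fold, and names mark genes past it. MCL1, DDIT3, FBXW7 and FADD lie below the line under H342, PIM1 and PIM3 above it, and MFN1 alone below it under H258.

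Of the other BCL2 family genes, 8 of 14 were detected and 0 were called under either dye. BOK, a relative of the effectors, had log2 differences of 0.67 under H258 and 0.46 under H342, with signals of 573 without dye, 812 with H258 and 697 with H342. BNIP3L, a receptor for the removal of mitochondria, had -0.19 and 0.56, with -0.54 and 0.45 at a second probe. BMF, a BH3-only gene, was detected under H258 only, with signals of 151 without dye, 180.2 with H258 and 133 with H342. None of the 9 detected genes of cytochrome c release and the apoptosome was called. The initiator CASP9, with signals of 186, 229 and 212 near the lowest detected level, had 0.73 under H258 and 0.55 under H342, or 0.37 and 0.27 in the deposited value table. The protease HTRA2, which is released with cytochrome c, had 0.64 and 0.55, with 0.19 and 0.29 at a second probe.

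FADD, the adaptor that joins death receptors to caspase 8, upstream of BID, had signals of 3061 without dye, 3378 with H258 and 1404 with H342. Its log2 difference under H342 was -1.10, 2.14-fold lower, and -1.03 in the deposited value table, with 0.15 under H258. It was the 1 gene called among 7 detected of the death receptor list, where the adaptor TRADD had 0.74 under H258 and 0.48 under H342, with 0.84 and 1.20 at a second probe, and the receptor TNFRSF1A 0.32 and 0.38. Among the membrane partners, MFN1, which fuses mitochondria, was lower under H258 by 1.05, with signals of 307 in untreated cells and 199 under H258, and by 0.59 in the deposited value table. MFN1 also had -0.37 under H342, with a signal of 249. In the same list MTCH2, a receptor for BID, had 0.70 under H258, or 0.40 in the deposited value table, and BCAP31 had 0.17 under H258 and 0.18 under H342.

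Of 7 detected genes that act on the turnover of the MCL1 protein, FBXW7 alone was called under H342. This ubiquitin ligase subunit, which marks MCL1 for destruction, had signals of 417, 359 and 237 in the order untreated, H258 and H342 and a log2 difference of -1.16 under H342. The difference was -0.74 in the deposited value table and -0.12 at its other detected probe. USP9X, a deubiquitinase that spares MCL1, had -0.78 under H258 and 0.22 under H342. The direct difference of H342 from H258 was just past 2-fold, but was 0.91 in the deposited value table and 0.32 at its other detected probe. The ligase subunit BTRC had 0.59 and 0.61, or 0.32 under each dye in the deposited value table.

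PIM1 and PIM3, kinases that can inactivate BAD, were the 2 genes called among 14 detected of the list of BAD kinases, phosphatases and 14-3-3 genes, both higher under H342. PIM1 had signals of 356 without dye, 367 with H258 and 656 with H342, a log2 difference of 1.27 that was 0.93 in the deposited value table. PIM3 had signals of 169, 191 and 274 in the same order and a difference of 1.55, which was 0.82 in that table. Neither kinase was past 2-fold there. PIM2 had 0.74 under H258 and 0.21 under H342. Of the transcription regulators of BH3-only genes, 10 were detected and DDIT3 was called. DDIT3, a stress factor that can raise BCL2L11 and BBC3, had signals of 1473 without dye, 2503 with H258 and 604 with H342, with log2 differences of 0.82 and -1.39. Between the dyes DDIT3 differed 4.62-fold, with H342 the lower. JUN had 0.76 under H258 and 0.03 under H342, and CEBPB -0.21 and -0.76.

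The 3 genes whose pair of log2 differences lay nearest to that of MCL1, of 10352 tested under both dyes, were SNORD14A, SNORD4A and ZKSCAN2, at Euclidean distances of 0.0049, 0.022 and 0.028 over 3 arrays. Their signals under H342 were 164, 181 and 215, where the lowest detected signal was 157, so their differences lean on the background correction. SNORD14A and SNORD4A are small nucleolar RNAs, and ZKSCAN2 is a zinc finger gene. A likeness over 3 arrays is a description only.

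**Figure D4:**
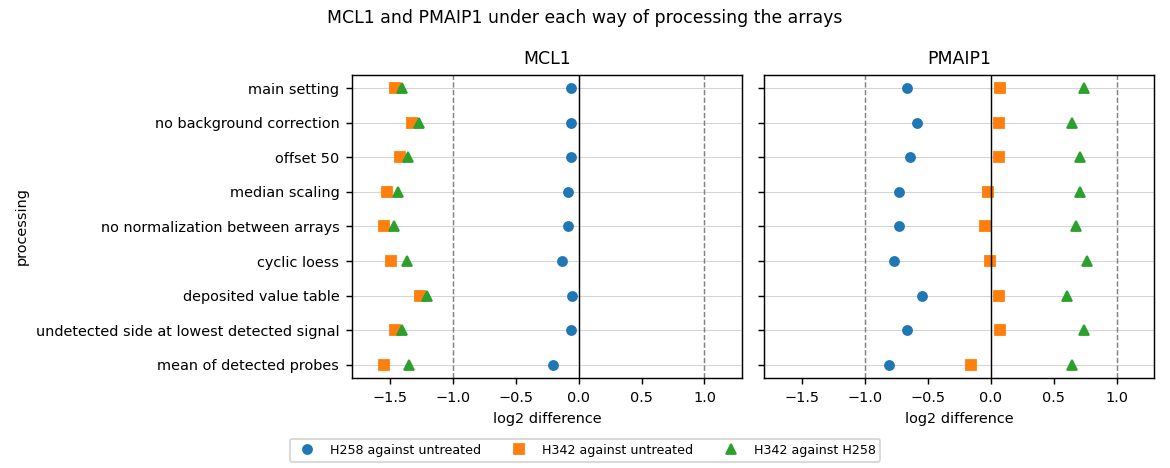
Log2 differences (horizontal axis) of the brightest probe of MCL1 and PMAIP1, and of the mean of their detected probes in the lowest row, under each way of processing the arrays (vertical axis). Circles are H258 against untreated cells, squares H342 against untreated cells and triangles H342 against H258; dashed lines mark 2-fold. MCL1 stays below the 2-fold line under H342 throughout, between -1.55 and -1.26, and PMAIP1 stays between -0.81 and -0.54 under H258.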

How the data were processed

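RNA of untreated, H258-treated and H342-treated H2373 cells was hybridized to 3 arrays of the same BeadChip, grouped by their labels. The authors exported the deposited signal intensities, 1 mean per probe and array, from BeadStudio 3.1.3.0 without normalization. Their lowest values lie well above 0, as signals without background subtraction do. The detection p-value beside each was computed by the authors and deposited with it. A deposited value table holds intensities that the authors normalized between arrays, with the method not stated in what was read, and served as an alternative.

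Background was corrected with neqc of limma 3.58.1 (R 4.3.3), adding an offset of 16, then quantile normalizing, on the log2 scale. Summaries and plots used Python 3.11.15, pandas 2.3.3, numpy 2.4.6 and matplotlib 3.10.9. Of 48798 probes, 28093 had 1 symbol in the array annotation, 13 had several and 20692 had none. The annotation is that of an earlier BeadChip version than the text names. A gene was represented by its probe of highest mean. Bounds set an undetected side to the lowest detected level. The steps were tested on simulated data. With 1 array per condition, no test was made. Named genes were all members, all called genes of the lists and the 2 largest of each list per dye, and the 3 genes most like the member of largest difference. Some genes on the lists were not analysed here. The members and lists were chosen with earlier results of these data known.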

Additional observations from a re-analysis of the deposited data

Results flagged for a closer look

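For 5 members the brightest probe lay above untreated cells under one dye and below under the other: BCL2, BCL2L1, BAK1, BCL2L11 and PMAIP1. This split was not tested, because each dye has 1 array and both comparisons use the same untreated array. The direct log2 difference of H342 from H258 was -0.42 for BCL2, -0.47 for BCL2L1, -0.46 for BAK1, -0.22 for BCL2L11 and 0.74 for PMAIP1. The BCL2 value was -0.18 without background correction, and the side of BCL2 under H258 depends on the processing, since its difference of 0.07 was -0.03 with median scaling and -0.02 with no normalization between arrays. For PMAIP1 too the side under H342 depends on the processing, since its difference of 0.07 was -0.16 when its probes were averaged, -0.02 with median scaling, -0.05 with no normalization between arrays and close to 0 with cyclic loess. BCL2L11 kept its side under H258, but its 0.11 there was 0.0030 with median scaling and 0.0071 with no normalization between arrays. Over its detected probes it was 0.26. Between the dyes the -0.22 of BCL2L11 was -0.46 over its detected probes and -0.10 without background correction. BAK1 kept its side under H258, where its 0.15 was 0.05 with cyclic loess. BCL2L1 also kept its side under H342, where its difference was small, at -0.05.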

How the results depend on the processing

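The call of MCL1 under H342, and between the dyes, held at 2-fold in the alternatives that change background, scaling, detection or probe choice, with a range of -1.55 to -1.26 under H342 and of -1.47 to -1.21 between the dyes. A threshold of 3-fold left 0 members called under H342 and 0 between the dyes, where 1.17% and 1.49% of all genes tested were called. At 1.5-fold there was 1 member called under H258, PMAIP1, and there were 2 between the dyes, MCL1 and PMAIP1, against 18.8% and 21.9% of all genes. With every probe counted, 2 of 18 member probes were called under H342, both of MCL1, against 4.56% of all probes tested. Between the dyes 3 of 19 were called, those of MCL1 and 1 of BAX, against 7.16%. The median of the members under H258 fell to 0.0030 with median scaling and to 0.0071 with no normalization between arrays. Of 29 single differences of members, 25 kept their sign in each of the 8 alternatives that recomputed them. The 4 that did not, of BAX and PMAIP1 under H342 and BCL2 and BID under H258, were at most 0.24 in size. None of these alternatives used another probe alone. At another detected probe, BID, BAD and BCL2 under H342 and BCL2 between the dyes had the opposite sign. Counts over all genes moved by more than 1.5 times: without background correction 112, 172 and 293 genes were called under H258, under H342 and between the dyes, by the authors' normalized values 88, 163 and 262, and with an offset of 50 there were 221, 292 and 496, against 434, 514 and 765. No replicate could be left out, and no paired analysis was possible because each condition has 1 array. The signals of BCL2, BCL2L11 and BBC3 lie near the lowest detected level, which limits what can be read from them.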

Other observations

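Probes of the family that were not detected on any array are given here by their signals. One probe each of BAX, BCL2L11 and BID and 2 of BCL2 lay between 106 and 139 on all 3 arrays, under the lowest detected signals of 156 to 160.0. For each of BAX, BCL2L11, BID and BCL2 another probe of the same gene was detected on all 3 arrays, so an undetected probe here does not show that a gene was silent.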
